A study of Mus musculus with 16 samples.

Results

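The 10 genes described here carry out or regulate de novo lipogenesis: Fasn, Acly, Acaca, Acacb, Acss2, Me1, Slc25a1, Srebf1, Mlxipl and Thrsp. They were taken by symbol from an expression table of 130343 rows, mostly RefSeq transcripts, in which 48 rows belong to these genes and 21 of the 48 hold any count. All 10 genes, out of 35556 gene symbols in the table, passed the filter on low counts and were tested. Poly(A) RNA was sequenced from adipose tissue of 8 male C57BL/6J mice, an inbred strain. From 10 weeks of age, 4 mice stayed on normal laboratory chow (lean) and 4 received a high-fat diet with 42% of its energy from fat and 0.2% cholesterol by weight (obese), for 12 to 14 months. Each mouse gave 1 library of inguinal subcutaneous adipose tissue (SAT, left and right depots pooled) and 1 of mesenteric visceral adipose tissue (VAT), both after removal of visible vessels, so the 16 libraries form 4 groups of 4.

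De novo lipogenesis is the building of fatty acids from carbohydrate and other small precursors. Citrate leaves the mitochondrion, is split in the cytosol to acetyl-CoA, is carboxylated to malonyl-CoA, and is then assembled by fatty acid synthase into palmitate at the cost of NADPH. In adipocytes and hepatocytes the genes of this route are controlled largely by the transcription factors SREBP-1c, which responds to insulin, and ChREBP, which responds to glucose, and the route is known to be suppressed by dietary fat.

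In VAT, 7 of the 10 genes were called lower in obese than in lean mice (5.28% of all genes tested were) and none higher (6.89%). In SAT the same diet was accompanied by a rise of Acss2 (3.67-fold), Me1 (2.61-fold) and Slc25a1 (1.46-fold) and a fall of Thrsp and Mlxipl. In lean mice 7 of the genes were higher in VAT than in SAT of the same animals (8.67% of all genes were), and in obese mice 1 was higher and 2 were lower, shares near those of all genes there. With libraries scaled to 5 adipocyte genes in place of TMM, the obese depot counts became 4 higher and 1 lower. The VAT diet counts became 1 higher and 2 lower. Of all 12185 genes, 7855 were then called higher between obese depots (96.9% of calls) and 4394 in VAT with the diet (97.6% of calls). The other shares of all genes in this paragraph are with TMM. The diet effect itself differed between depots for 6 genes, and in each of the 6 it was lower in VAT (1.62% of all genes).

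The libraries held between 1256082 and 16614407 counts. The shallowest was the VAT library of lean mouse 1, followed by the VAT library of obese mouse 1 with 2247737. The lipogenic genes together took 0.14% to 0.548% of a library's counts. Scd1, the stearoyl-CoA desaturase of fat tissue, alone took 3.28% to 14.0% of the counts in lean SAT, 23.7% to 25.7% in obese SAT, 5.04% to 9.20% in lean VAT and 12.5% to 18.5% in obese VAT, which is why levels are given as CPM scaled by trimmed mean of M-values (TMM). Of 10 adipocyte markers, 9 were detected and Cebpa was listed at 0 in every library. Their summed level was 85740 to 106096 CPM in lean SAT, 71230 to 88439 in obese SAT, 44266 to 61517 in lean VAT and 33487 to 43552 in obese VAT. The sum of 7 macrophage markers moved the other way, from 1309 to 1863 CPM in lean SAT to 2084 to 2984 in obese SAT, and from 2308 to 3024 in lean VAT to 4890 to 7011 in obese VAT. In tissue RNA, fewer cells of a type and less RNA per cell cannot be told apart. Mesothelial markers summed to 246 to 594 CPM in lean VAT and 294 to 359 in obese VAT, against at most 1.41 in SAT, where Msln and Wt1 were at 0. Markers of lymphocytes summed to 31.2 to 232 CPM in lean VAT and 176 to 319 in obese VAT, against at most 9.38 in SAT. Several other marker sums also moved with diet or depot. The 6 brown and beige markers summed to 31.7 to 92.4 CPM in lean SAT, 13.8 to 20.4 in obese SAT, 32.6 to 74.6 in lean VAT and 27.8 to 35.2 in obese VAT; in both depots Dio2 and Cidea fell with the diet and Ucp1 rose. Skeletal muscle markers summed to 3.84 to 8.70 CPM in lean SAT, 1.63 to 1.91 in obese SAT, 3.22 to 5.16 in lean VAT and 1.90 to 3.55 in obese VAT. Exocrine pancreas markers summed to 1.83 to 13.3 CPM in lean VAT, with the highest value in lean mouse 1, to at most 4.73 in obese VAT and to at most 0.753 in SAT. Intestinal epithelium summed to 12.0 to 43.9 CPM in lean VAT and 12.0 to 23.8 in the other groups, and endothelium, with Pecam1 listed at 0, to 163 to 338 over all libraries. The part of these cells in the results below was not tested.

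In the mouse genome (GRCm39, GENCODE vM39), Fasn lies at chr11:120696672-120715995, Acly at chr11:100367165-100440756, Acaca at chr11:84020476-84292477, Srebf1 at chr11:60089913-60113407, Acacb at chr5:114284307-114388822, Mlxipl at chr5:135118744-135168615, Acss2 at chr2:155355679-155428016, Me1 at chr9:86462646-86578104, Slc25a1 at chr16:17743075-17746245 and Thrsp at chr7:97062139-97066937. Acss2, Slc25a1 and Thrsp each have 1 row in the table, and Fasn and Me1 take nearly all of their counts from 1 row. How reads shared between transcript models were counted was not stated, so the level of one gene is not ranked against that of another, and ratios of genes are compared only between libraries. All of the counts of Acly fall on 1 of its 2 rows, Acaca has counts on 2 of 11 rows, Acacb on 3 of 5, Srebf1 on 4 of 6, and Mlxipl on 3 of 16, with 99.6% of its counts on a noncoding transcript model (XR_377113.chr5).

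The promoters of 4 of the genes are shown because these genes moved in different combinations: Acss2 rose in SAT and was not called in VAT, Slc25a1 rose in SAT and fell in VAT, Fasn fell in VAT, and Thrsp fell in both depots. Each sequence runs 5′ to 3′ from 250 bases before to 50 bases after the RefSeq start of the gene and was located in GRCm39 by an exact match. Capitals mark the motifs that were searched on both strands: the CCAAT box (CCAAT), the GC box (GGGCGG), the palindromic E-box (CACGTG) and a sterol response element (TCACNCCAC).
Acss2 promoter (chr2:155359713-155360012, plus strand): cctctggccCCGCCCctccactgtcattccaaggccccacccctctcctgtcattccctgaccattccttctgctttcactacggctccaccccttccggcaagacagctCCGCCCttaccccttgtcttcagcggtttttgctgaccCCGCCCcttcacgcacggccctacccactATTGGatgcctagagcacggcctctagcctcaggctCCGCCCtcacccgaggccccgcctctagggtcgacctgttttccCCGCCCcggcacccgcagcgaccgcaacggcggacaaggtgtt
Slc25a1 promoter (chr16:17746034-17746333, minus strand): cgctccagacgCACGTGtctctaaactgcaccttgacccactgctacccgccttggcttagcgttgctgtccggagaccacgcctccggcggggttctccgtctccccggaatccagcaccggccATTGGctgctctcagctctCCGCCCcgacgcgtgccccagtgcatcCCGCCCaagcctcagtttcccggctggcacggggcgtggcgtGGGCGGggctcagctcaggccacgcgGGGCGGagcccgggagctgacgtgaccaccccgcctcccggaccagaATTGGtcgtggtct
Fasn promoter (chr11:120715324-120715623, minus strand): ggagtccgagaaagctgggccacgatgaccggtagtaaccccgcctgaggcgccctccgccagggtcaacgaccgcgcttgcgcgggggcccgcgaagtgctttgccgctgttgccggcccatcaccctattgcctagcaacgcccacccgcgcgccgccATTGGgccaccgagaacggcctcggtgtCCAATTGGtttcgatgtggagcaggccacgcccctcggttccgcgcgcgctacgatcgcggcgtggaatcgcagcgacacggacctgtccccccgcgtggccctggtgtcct
Thrsp promoter (chr7:97066708-97067007, minus strand): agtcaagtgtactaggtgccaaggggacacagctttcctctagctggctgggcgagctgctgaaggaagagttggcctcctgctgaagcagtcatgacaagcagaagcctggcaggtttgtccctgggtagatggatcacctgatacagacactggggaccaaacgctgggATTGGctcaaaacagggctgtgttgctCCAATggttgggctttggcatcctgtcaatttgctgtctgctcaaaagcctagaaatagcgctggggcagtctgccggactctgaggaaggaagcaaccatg

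The Acss2 promoter holds 1 CCAAT box and 5 GC boxes, and that of Slc25a1 holds 2 CCAAT boxes, 4 GC boxes and 1 E-box. The promoters of Fasn and Thrsp hold 3 and 2 CCAAT boxes, respectively, and none of the other motifs; 2 of the 3 in Fasn are on opposite strands and overlap. Over the 14 promoters that RefSeq lists for the 10 genes, 10 held a CCAAT box, 7 a GC box, 2 an E-box (Slc25a1 and Mlxipl) and 1 the sterol response element (Mlxipl). Among 32851 mouse promoters of the same length, 37.4% held a CCAAT box, 35.7% a GC box, 7.15% the E-box and 1.24% the sterol response element. These are matches of letters, and no binding was measured.

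**Figure D1:**
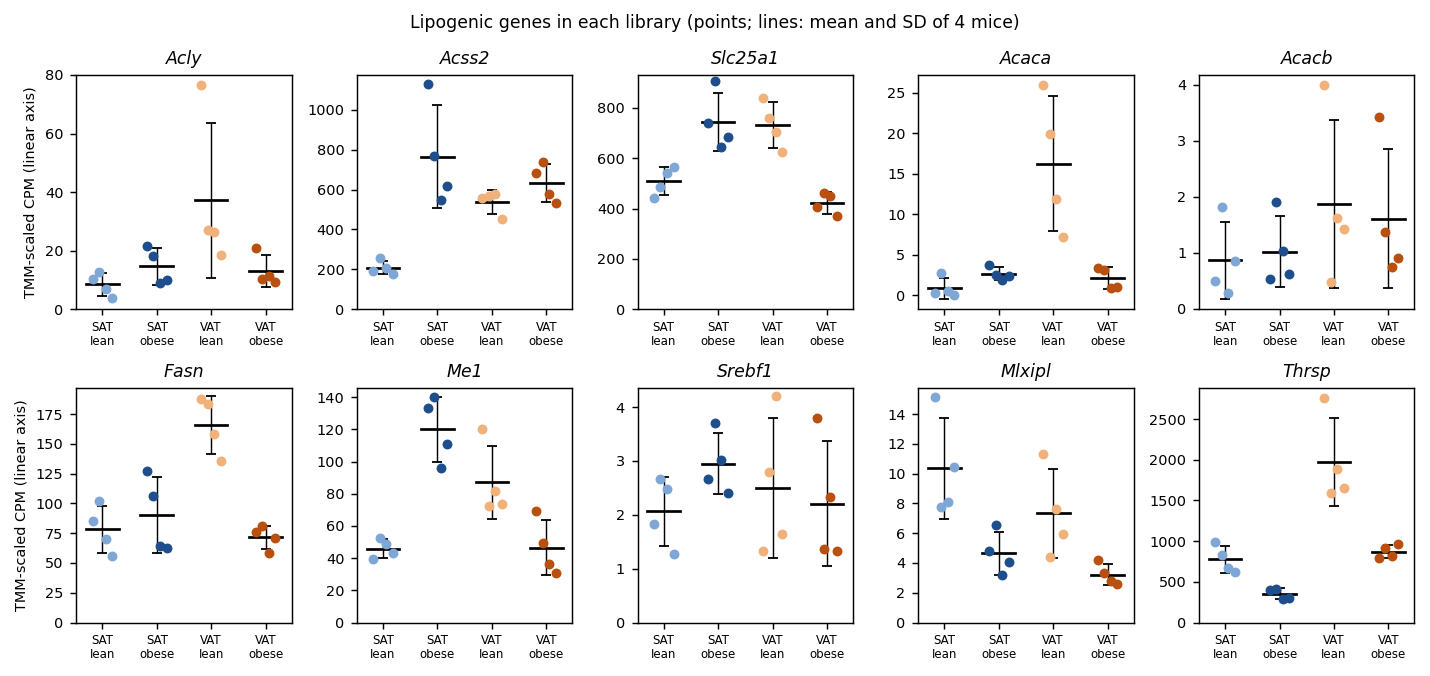
TMM-scaled CPM (linear axes, a separate scale for each gene) of the 10 lipogenic genes in the 16 libraries; points are libraries, horizontal lines are the means of 4 mice and bars are SD. The Acss2, Me1 and Slc25a1 points of obese SAT all lie above those of lean SAT, and the Fasn, Acaca, Me1, Slc25a1, Mlxipl and Thrsp points of obese VAT all lie below those of lean VAT.

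The first comparison asked how the diet changed these genes in SAT. Of 12185 genes tested with edgeR's quasi-likelihood test, 6.35% were called higher (adjusted p below 0.05) and 5.25% lower in obese SAT, and of the 10 lipogenic genes 3 were called higher and 2 lower. Their median log2 fold change was 0.51, against 0.00 over all genes tested. With libraries scaled to 5 adipocyte genes in place of TMM, which moved the median of all genes to 0.33 and the share of higher calls from 54.7% to 91.3%, 3 were higher and 1 lower. Over all 12185 genes, 2176 were then called higher and 207 lower.

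Acss2 encodes the cytosolic enzyme that makes acetyl-CoA from acetate. Its level in lean SAT was 193, 256, 206 and 178 CPM in the 4 mice, and in obese SAT 1129, 769, 545 and 618 CPM. The groups were far apart, and every obese library lay well above every lean one. The log2 fold change was 1.88 ± 0.18 (SE, adjusted p = 7.73e-07), which ranked 12 among all 12185 genes by p.

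Me1 encodes cytosolic malic enzyme, which supplies NADPH. It measured 39.6, 52.4, 48.7 and 43.3 CPM in lean SAT and 133, 140, 96.3 and 111 CPM in obese SAT. The groups did not overlap, and the log2 fold change was 1.38 ± 0.20 (SE, adjusted p = 0.000112). Slc25a1, the mitochondrial citrate carrier that exports the carbon for Acly, measured 441, 487, 541 and 566 CPM in lean and 741, 906, 643 and 685 CPM in obese SAT. Every obese library again lay above every lean one, by less than for Me1 (log2 fold change 0.55 ± 0.12, SE, adjusted p = 0.00583).

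Thrsp, also called Spot 14, is a small nuclear and cytosolic protein that is induced with the lipogenic enzymes by thyroid hormone and carbohydrate. Its level fell in SAT, from 993, 825, 669 and 616 CPM in lean mice to 404, 417, 295 and 301 CPM in obese mice. No obese library reached the lean range (log2 fold change -1.13 ± 0.17, SE, adjusted p = 0.000174). Mlxipl encodes ChREBP. It fell from 15.1, 7.73, 8.13 and 10.4 CPM to 4.80, 6.58, 3.22 and 4.03 CPM (log2 fold change -1.18 ± 0.27, SE, adjusted p = 0.00699). The groups did not overlap here either, but the call was lost with scaling to the adipocyte genes (adjusted p = 0.0773), and the value describes the noncoding model that holds nearly all Mlxipl counts.

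The core enzymes of fatty acid synthesis did not pass the test in SAT. Fasn, fatty acid synthase, measured 85.0, 102, 69.98 and 56.1 CPM in lean and 128, 106, 64.3 and 62.5 CPM in obese SAT, with a log2 fold change of 0.20 (95% interval -0.23 to 0.62). Acly, ATP citrate lyase, had a log2 fold change of 0.75 (-0.06 to 1.56, adjusted p = 0.233), and Acaca, acetyl-CoA carboxylase 1, of 1.59 (0.31 to 2.87, adjusted p = 0.101). Both overlapped between the groups. Of 18 alternatives, 4 called Acaca: no filter on low counts, the replicate number as a block, limma, and leaving out lean mouse 2 (log2 fold change 2.97). The adjusted p of Acaca ran from 0.000262 to 0.246 over the alternatives. Acly was called in 2 of 18, with no filter and with the replicate number as a block. Acaca had 0 to 20 counts in a lean SAT library and 24 to 50 in an obese one, and the depth there does not fix its size.

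For Srebf1, which encodes SREBP-1, the log2 fold change in SAT was 0.47 (95% interval -0.24 to 1.19), from 6 to 44 counts a library. For Acacb, the mitochondrial acetyl-CoA carboxylase 2 whose malonyl-CoA restrains fatty acid oxidation, it was 0.29 (-1.03 to 1.61), from 3 to 18 counts. Intervals this wide leave a change of either sign possible for both genes.

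In VAT the diet went with lower levels along the route. Of all 12185 genes, 6.89% were called higher and 5.28% lower in obese VAT, and of the 10 lipogenic genes 7 were lower and none higher (none at an unadjusted p below 0.05, and none with DESeq2 or limma). Their median log2 fold change was -1.01, against -0.02 over all genes. Scaling to 5 adipocyte genes moved the median of all genes to 0.58 and the share of higher calls from 56.6% to 97.6%. Of all 12185 genes, 4394 were then called higher. That scaling left 2 of the 7 called lower (Acaca and Thrsp), while the other 5 kept their sign, and it called Acss2 higher. In the TMM fit, 5 of 9 tested adipocyte markers were themselves lower in obese VAT, with a median of -0.62 over the 9, and 5 of 6 macrophage markers were higher. The part of cell composition in the lower values was not tested.

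Fasn measured 188, 183, 158 and 135 CPM in the lean group and 76.1, 81.0, 58.2 and 70.6 CPM in the obese one. The ranges were well apart, at a log2 fold change of -1.21 ± 0.21 (SE, adjusted p = 0.000496). Acaca, which makes the malonyl-CoA used by Fasn, measured 25.9, 19.9, 12.0 and 7.24 CPM in lean and 3.42, 3.14, 0.933 and 1.08 CPM in obese VAT. It changed most of the 10 genes on the log2 scale (-2.98 ± 0.53, SE, adjusted p = 0.000668), from few counts, 9 to 39 in each obese library. If reads shared between its 11 models were left uncounted, these counts would be a small part of the gene's reads.

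Acly measured 76.5, 27.2, 26.5 and 18.5 CPM in the lean group and 20.9, 10.4, 11.5 and 9.29 CPM in the obese one. The highest obese library lay above the lowest lean one, so the groups overlapped, and the highest lean value came from the shallowest library. The log2 fold change was -1.48 ± 0.40 (SE, adjusted p = 0.0166), and the call was lost without lean mouse 1, without obese mouse 2 or without obese mouse 4 (adjusted p up to 0.128 over the alternatives).

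Slc25a1 fell in VAT, where it had risen in SAT. It measured 838, 760, 704 and 626 CPM in lean and 405, 462, 450 and 370 CPM in obese VAT, with no overlap (log2 fold change -0.79 ± 0.12, SE, adjusted p = 0.00022). Me1 also fell, from 120, 72.2, 81.8 and 73.8 CPM to 69.2, 49.4, 36.7 and 30.9 CPM (-0.91 ± 0.21, SE, adjusted p = 0.00505). The highest obese library for Me1, that of obese mouse 1, lay just under the lowest lean one.

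Thrsp measured 2760, 1591, 1888 and 1657 CPM in the lean group and 797, 911, 820 and 963 CPM in the obese one (log2 fold change -1.18 ± 0.17, SE, adjusted p = 0.000109). The groups did not overlap. Mlxipl measured 11.3, 4.41, 7.65 and 5.92 CPM in lean and 4.18, 3.31, 2.80 and 2.57 CPM in obese VAT (-1.11 ± 0.31, SE, adjusted p = 0.0211). Its groups were separated by a narrow gap, and its call was lost without lean mouse 3, without obese mouse 3 or without obese mouse 4 (adjusted p up to 0.257 over the alternatives).

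Acss2 was not called in VAT. It measured 556, 568, 579 and 451 CPM in the lean group and 682, 737, 580 and 531 CPM in obese VAT. The groups overlapped, and the log2 fold change was 0.23 (95% interval -0.13 to 0.60, adjusted p = 0.463), which leaves out a fall of the size seen for Fasn. Srebf1 had a log2 fold change of -0.49 (-1.26 to 0.28) and Acacb of -0.06 (-1.39 to 1.26), both with overlapping groups and under 50 counts in each library.

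**Figure D2:**
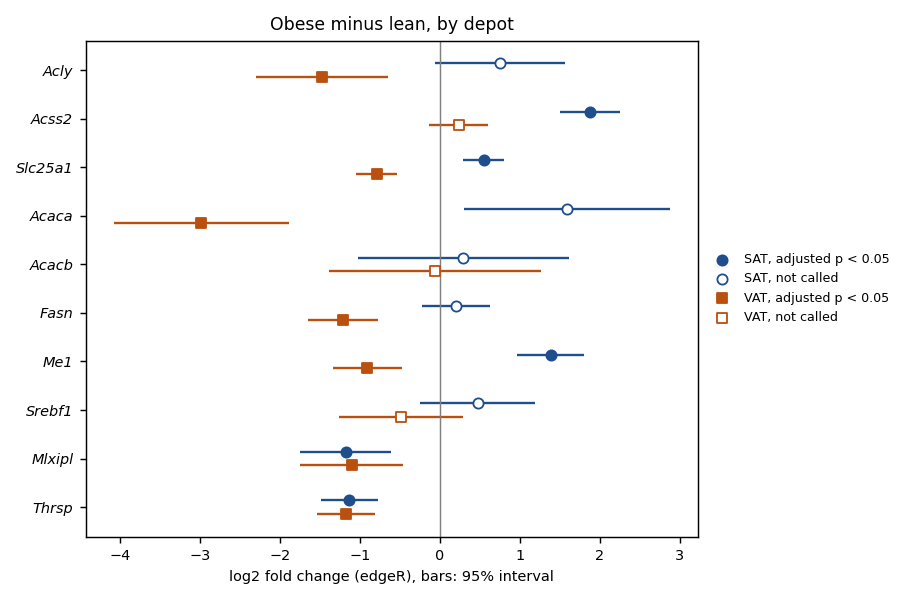
Log2 fold change (obese minus lean) of the 10 genes in SAT (circles) and VAT (squares), with 95% intervals from edgeR; filled symbols have an adjusted p below 0.05. The 7 filled VAT symbols are all left of 0, from -0.79 for Slc25a1 to -2.98 for Acaca, and Thrsp and Mlxipl are the 2 genes called lower in both depots.

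The second comparison asked whether the depots differed within a mouse, with the mouse as a block in the model. In lean mice 8.67% of genes were called higher in VAT than in SAT and 7.22% lower, and of the lipogenic genes 7 were higher and none lower with edgeR (1, Mlxipl, at an unadjusted p below 0.05, and 1 with limma, also Mlxipl). The 7 were Fasn (log2 difference 1.11 ± 0.13, SE), Acly (2.01 ± 0.24), Acaca (4.34 ± 0.45), Acss2 (1.38 ± 0.12), Me1 (0.88 ± 0.16), Slc25a1 (0.52 ± 0.12) and Thrsp (1.34 ± 0.12), with adjusted p from 4.21e-08 for Acss2 to 0.00334 for Slc25a1. The Acaca value rests on 3, 20, 6 and 0 counts in the lean SAT libraries, and was 5.54 without lean mouse 2 and 3.68 without lean mouse 1. For each of the 7, all 4 VAT libraries lay above all 4 SAT libraries. This describes the libraries that gave the calls, and the share of all genes separated this way was not counted. Mlxipl was lower in VAT in 4 of 4 lean mice (-0.53, 95% interval -0.99 to -0.06) without passing the test (adjusted p = 0.119), and its value was 0.15 with scaling to 5 adipocyte genes. Srebf1 (0.31, -0.46 to 1.07) and Acacb (0.86, -0.65 to 2.37) overlapped between depots. Of 9 tested adipocyte markers, Lep, Lpl and Fabp4 were lower in lean VAT than in lean SAT and the other 6 were not called, Adipoq (0.08) and Plin1 (-0.01) among them. Scaled to 5 adipocyte genes, 7 were higher and none lower, with the median of all genes moved to 0.69 and the share of higher calls from 54.6% to 96.4%. Under that scaling 5778 of all 12185 genes were called higher and 215 lower.

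In obese mice the depots differed otherwise. Here 16.3% of all genes were called higher and 15.1% lower in VAT, and of the 10 genes 1 was higher and 2 were lower. Thrsp kept a higher VAT level in 4 of 4 mice (1.32 ± 0.12, SE, adjusted p = 6.08e-08). Me1 (-1.43 ± 0.16, SE, adjusted p = 7.77e-07) and Slc25a1 (-0.81 ± 0.12, SE, adjusted p = 2.02e-05) were lower in VAT in 4 of 4 mice, with no overlap of the libraries. For Fasn (-0.26, 95% interval -0.53 to 0.00), Acss2 (-0.23, -0.47 to 0.02), Acly (-0.15, -0.62 to 0.33) and Acaca (-0.46, -1.32 to 0.41) the depots overlapped, and VAT was above SAT in 1 of 4 mice for each. Fasn was called lower in VAT without obese mouse 4 (-0.39). Mlxipl was below its SAT level in 4 of 4 obese mice (-0.55, adjusted p = 0.0909). Of 9 tested adipocyte markers, 7 were lower in obese VAT than in obese SAT and 0 higher, with a median of -0.92. All 6 tested macrophage and all 6 tested lymphocyte markers were higher. The part of cell composition in these depot differences was not tested.

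The obese depot values depend on what the libraries are scaled to. With scaling to 5 adipocyte genes, which moved the median of all genes to 0.94 and the share of higher calls from 52% to 96.9%, 4 of the 10 were higher and 1 lower, and Fasn, Acly, Acaca, Acss2, Slc25a1, Srebf1 and Mlxipl changed sign. Each of these 7 still lay under that shifted median, as it lay under the median with TMM. Of all 12185 genes, 7855 were called higher and 248 lower with that scaling.

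**Figure D3:**
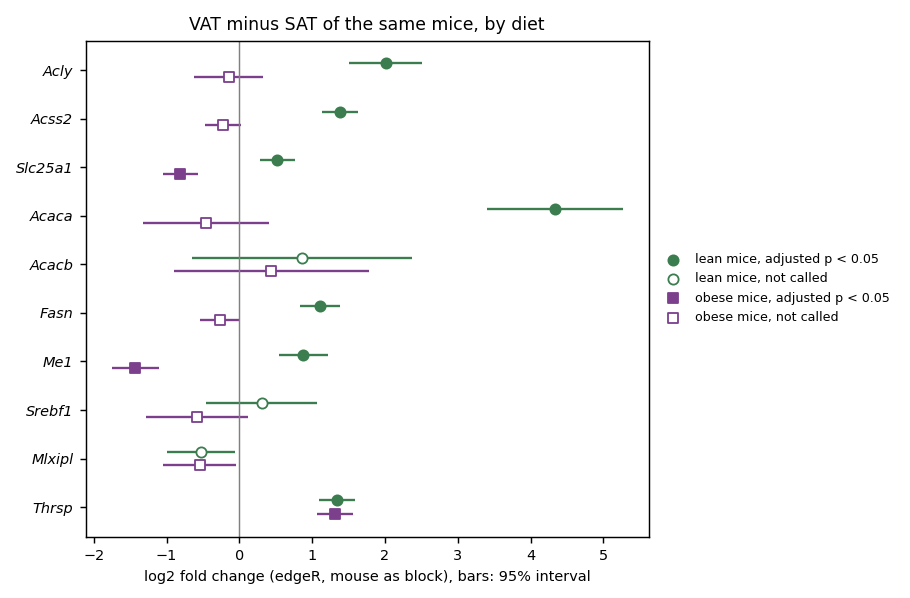
Log2 difference between VAT and SAT of the same mice in lean (circles) and obese (squares) animals, with 95% intervals from edgeR with the mouse as a block; filled symbols have an adjusted p below 0.05. Fasn, Acly, Acaca, Acss2, Me1 and Slc25a1 lie right of 0 in lean mice and left of it in obese mice (right of it in obese mice too, except Me1, with scaling to 5 adipocyte genes), while Thrsp lies at 1.34 and 1.32.

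The diet effects and the depot differences use the same libraries, so their values are set side by side and the difference was tested by 1 interaction term. Over all genes this term was called higher for 0.854% and lower for 1.62%, and for 6 of the 10 genes it was lower and for none higher (none at an unadjusted p below 0.05, and none with DESeq2 or limma). The median over the 10 was -1.35, against 0.00 over all genes. Me1 had a diet effect of 1.38 in SAT and -0.91 in VAT, a difference of -2.31 ± 0.22 (SE, adjusted p = 3.11e-06). Slc25a1 went from 0.55 to -0.79, a difference of -1.33 ± 0.16 (SE, adjusted p = 9.5e-05). In these 2 genes the diet effect passed the test with opposite signs in the depots, but the VAT calls were lost with scaling to 5 adipocyte genes (adjusted p = 0.367 for Me1 and 0.254 for Slc25a1).

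For Acss2 the diet effect was 1.88 in SAT and 0.23 in VAT, a difference of -1.60 ± 0.17 (SE, adjusted p = 7.91e-06). For Fasn it was 0.20 and -1.21, a difference of -1.37 ± 0.18 (SE, adjusted p = 0.000187). Acly differed by -2.16 ± 0.33 (SE, adjusted p = 0.00104), which was lost without the mouse block (adjusted p = 0.0518), and Acaca by -4.79 ± 0.62 (SE, adjusted p = 0.000132). The Acaca difference was -5.97 without lean mouse 2 and -4.13 without lean mouse 1. The interaction of these 6 stayed called with scaling to 5 adipocyte genes, where the median of all genes moved to 0.26 and the share of higher calls from 34.6% to 76.2%. Of all 12185 genes, 205 were then called higher and 64 lower.

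The other 4 genes were not called in this test. The interaction was -0.02 for Thrsp (95% interval -0.37 to 0.33) and -0.02 for Mlxipl (-0.67 to 0.63), and 0.22 and 0.24 with scaling to 5 adipocyte genes. For Thrsp the interval leaves out a difference of the size found for Fasn or Slc25a1. For Srebf1 it was -0.89 (-1.93 to 0.15) and for Acacb -0.42 (-2.44 to 1.60), intervals too wide to tell.

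A ratio of 2 genes within a library does not depend on the scaling. The 5 ratios given here were chosen after the values were seen and are a description with no test. The ratio of Acss2 to Fasn was 2.73 ± 0.41 in lean and 8.62 ± 1.09 in obese SAT (SD, n = 4), and 3.26 ± 0.31 in lean and 8.88 ± 1.01 in obese VAT. No obese library overlapped a lean one in either depot. With TMM, Acss2 was called higher in SAT and Fasn lower in VAT, whereas with scaling to 5 adipocyte genes Acss2 was called higher in both depots and Fasn in neither direction.

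The ratio of Thrsp to Fasn was 10.1 ± 1.59 in lean and 4.13 ± 0.74 in obese SAT (SD, n = 4), without overlap, and 11.9 ± 2.47 and 12.4 ± 1.77 in VAT, with overlapping groups. Me1 to Fasn was 0.612 in lean and 1.41 in obese SAT, without overlap, and 0.525 and 0.647 in VAT, with overlap. Slc25a1 to Fasn overlapped in SAT (6.95 and 8.82) and not in VAT (4.42 and 6.00). Acss2 to Acly overlapped in SAT (28.6 and 54.6) and not in VAT (18.6 and 52.8).

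**Figure D4:**
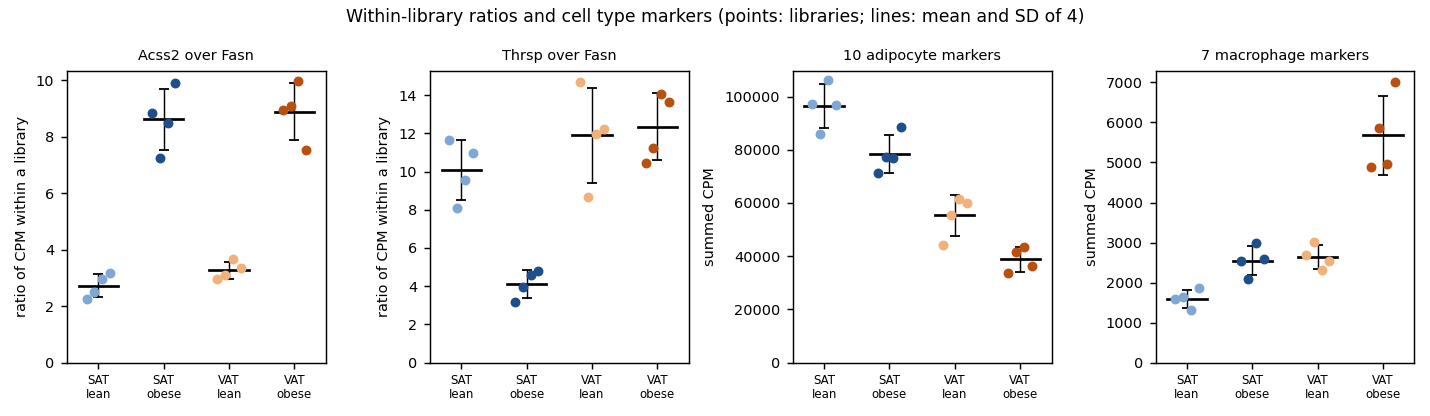
From left to right, the ratios of Acss2 to Fasn and of Thrsp to Fasn within each library, and the summed CPM of 10 adipocyte and 7 macrophage markers; points are libraries, lines are means and bars SD of 4 mice. The Acss2 to Fasn ratio lies between 2.26 and 3.66 in every lean library and between 7.25 and 9.96 in every obese one, in both depots.

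The rows behind the gene sums were tested as deposited. Of 13288 rows, 6.2% were called higher and 4.85% lower in obese SAT, and of 12 rows of the lipogenic genes 4 were higher and 2 lower. In obese VAT 6.82% of rows were called higher and 4.09% lower, and of the 12 rows 7 were lower. The rows of Fasn, Acly, Acss2, Me1, Slc25a1, Thrsp and Mlxipl gave the calls of their genes.

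Both counted rows of Acaca had positive values in SAT and negative values in VAT, with overlapping 95% intervals, and each was called in 1 depot. XM_006531954.chr11 had a log2 fold change of 0.65 (adjusted p = 0.670) in SAT and fell by 3.49 in VAT (adjusted p = 0.000402). XM_030245462.chr11 rose in SAT by 2.34 (adjusted p = 0.0142) and had a log2 fold change of -1.47 in VAT (adjusted p = 0.0912). Without lean mouse 2 the SAT value of XM_030245462.chr11 was 3.26, and without obese mouse 2 the VAT value of XM_006531954.chr11 was -4.22. XM_006531954.chr11 held 79.5%, 87.8%, 80.2% and 83.3% of the counts of the pair in lean VAT, and 66.7%, 64.1%, 40% and 38.5% in obese VAT. Every obese share lay below every lean one, a pattern noticed in the data and given with no test. Obese VAT libraries held 9 to 39 counts of the pair, and the 95% Wilson interval at 9 counts ran from 35.4% to 87.9%, for counting error only. In SAT the groups overlapped: the share was 100% (of 3 counts), 65% and 16.7% in lean mice, with no counts in lean mouse 4, and 40%, 33.3%, 21.4% and 19.4% in obese mice. Models of 1 gene share exons, so the split depends on how shared reads were assigned.

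The genes around the route were counted in lists with the edgeR fit. Their counts stand beside shares over all genes of 6.35% higher and 5.25% lower in SAT, and 6.89% and 5.28% in VAT. In obese VAT 5 of 9 adipocyte markers were also lower (median log2 fold change -0.62). There, scaling to 5 adipocyte genes moved the median of all genes from -0.02 to 0.58. These lists are given with TMM only, and the part of cell composition in them was not tested. Of 14 tested genes that supply carbon or NADPH, G6pdx rose in obese SAT and Tkt and Pdha1 fell, while in obese VAT 7 fell and none rose (none at an unadjusted p below 0.05). Among the 7 were Tkt, the transketolase of the pentose phosphate pathway (log2 fold change -1.45, adjusted p = 3.67e-06), the pyruvate dehydrogenase subunits Pdha1 (-0.85, adjusted p = 4.39e-05) and Dlat (-0.67, adjusted p = 0.000162), and Idh1, a cytosolic source of NADPH (-0.61, adjusted p = 0.00233). The interaction was called lower for 6 of the 14 (1.62% of all genes), Pcx, Hk2, Dlat and Idh1 among them.

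Of 13 tested enzymes that elongate and desaturate fatty acids such as the product of Fasn, 9 rose in obese SAT (6.35% of all genes) and none fell (5.25%; 1 fell at an unadjusted p below 0.05), with Scd2 at 2.88 (log2 fold change, adjusted p = 4.24e-07) and Scd1 at 1.80 (adjusted p = 0.000274). In obese VAT Scd2 (1.29, adjusted p = 0.00144) and Scd1 (1.13, adjusted p = 0.0105) also rose, whereas Elovl6, which extends palmitate to stearate, fell (log2 fold change -1.205, adjusted p = 0.000293) and Hacd2 fell by 0.81 (adjusted p = 0.000276). Scd1 and Scd2 are close paralogs, and how reads shared between them were counted is uncertain. Elovl6 rose in SAT by 1.07 (adjusted p = 0.000895), and its interaction was -2.29 ± 0.15 (SE, adjusted p = 1.38e-08).

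Of 10 tested genes that process SREBP or act with it, Insig1, which holds SREBP in the endoplasmic reticulum and is itself an SREBP target, rose by 1.96 (log2, adjusted p = 3.8e-06) in SAT and by 0.81 (adjusted p = 0.0115) in VAT. Nr1h3, the oxysterol receptor LXRα, rose in SAT (0.78, adjusted p = 0.0312), and none of the 10 fell in either depot, at an unadjusted p below 0.05 either. Of 6 tested partners and targets of ChREBP, none was called in SAT (none at an unadjusted p below 0.05) and Arrdc4 rose in VAT (0.46, adjusted p = 0.0182). Of 7 genes of AMPK and malonyl-CoA handling, Acsl1 rose in SAT (0.99, adjusted p = 0.00737) and none was called in VAT (1 fell at an unadjusted p below 0.05).

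Of 7 tested genes of insulin signaling, Irs1 fell in SAT (-1.73, log2 fold change, adjusted p = 6.16e-07) and in VAT (-1.58, adjusted p = 1.93e-06). Irs2 rose in SAT (0.84, adjusted p = 0.000956) and Pik3r1 fell in VAT (-0.93, adjusted p = 0.00102). Of 5 tested genes of cholesterol synthesis, Cyp51 rose and Fdft1 fell in SAT, and Idi1 (-0.60) and Sqle (-0.66) fell in VAT. These 2 values lie near the VAT median of -0.62 over 9 adipocyte markers. The part of cell composition in them was not tested. The 5 genes whose log2 CPM was most like the mean of the 10 standardised lipogenic genes over the 16 libraries, out of 12175, were Elovl6 (r = 0.919), Aacs (0.887), Pcx (0.884), Pcdhga8 (0.873) and Bscl2 (0.871). These r values describe libraries that fall into 4 groups, and carry no test.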

How the data were processed

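Poly(A) RNA of 16 libraries was sequenced paired-end with a directional protocol. With versions per the labels' processing notes, the authors trimmed reads with Trim Galore 0.6.6 (the study's methods give another version), aligned them with HISAT2 2.2.0 to GRCm39 with RefSeq annotation, and counted them with HTSeq 0.13.5. The treatment of reads shared by transcripts and the strand setting are not given in the sources used here. The deposited table holds raw counts per row and CPM; the CPM the authors deposited equal the counts over the column total (largest difference 4.7e-10) and carry no TMM factor, so the counts were tested.

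Symbols were matched by RefSeq identifier for 106821 of 130343 rows (82.0%), and counts were summed per gene, other rows staying separate. Features with CPM above 1 in at least 3 libraries were tested in edgeR 4.0.16 (R 4.3.3) with TMM factors and the quasi-likelihood test, Benjamini-Hochberg adjusted over all 12185 features (13288 rows); called means an adjusted p below 0.05 at any size. Diet contrasts used the 4 groups, and depot and interaction contrasts the mouse as a block, since SAT and VAT of a number and diet come from 1 mouse. Deviations of the 2 libraries of a mouse from their group means correlated with r from 0.00 to 0.18 (3 of 8 mice above 0.1). Alternatives were other scaling (DESeq2 1.42.0 size factors, 5 adipocyte genes), other filters, DESeq2, limma 3.58.1, the replicate number as a block, the tissue alone and leaving out each mouse. Scripts were tested on simulated data. Replicates were separate mice; no 2 of 24 within-group pairs were copies (lowest chi-square per degree of freedom 8.75). Depth sets precision: 1 count is 0.0602 to 0.796 CPM. All 10 genes are named; of other lists up to 4 called genes per comparison with the smallest adjusted p, and the 5 genes most like the 10. Members and lists were chosen with earlier results of these data known. Promoter sequences are from RefSeq (GRCm38.p6 table), matched to GRCm39; all 10 genes had one.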

Additional observations from a re-analysis of the deposited data

Results flagged for a closer look

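The diet effect differed between SAT and VAT, by the interaction test with the mouse as a block, for 6 of the 10 genes. The log2 difference (VAT minus SAT) was -1.37 for Fasn, -2.16 for Acly, -4.79 for Acaca, -1.60 for Acss2, -2.31 for Me1 and -1.33 for Slc25a1. In lean VAT, 1 Acly value, 76.5 CPM in lean mouse 1, stood apart from the other 3, with a gap of 0.85 of the group's range. It came from the shallowest library, at 115 counts. It was the only such value among 40 groups of 4 examined (10 genes in 4 groups), where chance gives about 1 in 20. The same library also held the highest lean VAT value of Fasn, Acaca, Acacb, Me1, Slc25a1, Mlxipl and Thrsp, but not of Acss2 or Srebf1. The 10 genes took 0.548% of its counts, against 0.319% to 0.350% in the other lean VAT libraries.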

How the results depend on the processing

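Of 120 recomputed counts of called genes or rows, 117 stayed within 1.5 times the value reported. The other 3 came from scaling to 5 adipocyte genes (Adipoq, Plin1, Fabp4, Cidec and Lpl), of which 3 were themselves lower in obese VAT: 3 genes and 3 rows were then called in VAT, and 5 genes between the depots of obese mice, where Fasn (0.66), Acly (0.78) and Acss2 (0.70) turned positive and were called and Slc25a1 (0.12) turned positive and lost its call. Of 839 values of single genes, 813 kept their side of the threshold and, where called, their direction, 13 lost their call, 9 gained one and 4 changed sign with a call before or after. Leaving out each mouse gave 5 to 6 called genes in SAT, 5 to 7 in VAT, 7 between lean depots, 3 to 4 between obese depots and 6 for the interaction. With the replicate number as a block, 7 genes were called in SAT (Acly and Acaca added) and 7 in VAT. Lean and obese mice of the same number are different animals. Deviations of such pairs from their group means correlated with r from -0.09 to 0.17 (median 0.07, 2 of 8 pairs above 0.1). Median r was -0.02 for lean and obese mice of other numbers and 0.08 for the 2 libraries of a mouse. Whether the number marks anything shared by lean and obese mice was not tested. Without the mouse block the interaction was called for 5. Without the 2 shallowest libraries, VAT of lean mouse 1 and of obese mouse 1, chosen after seeing the depths, 5 genes were called in SAT and 7 in VAT. Depth limits Acacb, Srebf1 and Acaca most.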
